A study of Mus musculus with 64 samples.

Results

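The enzymes described here carry carbon from glycolysis into serine and from serine into the folate cycle. They were chosen by name: Phgdh, Psat1, Psph, Shmt1, Shmt2, Mthfd1, Mthfd1l, Mthfd2 and Aldh1l2, 9 of the 39017 genes in the count table, and all 9 were counted in every library and passed every filter on low counts. The libraries came from 8 mouse pancreatic tumor lines. Clones E, H and V (metabolic group 1) and clones K, M, N and T (group 2) are each 1 clone of a tumor of an engineered mouse whose alleles include Trp53+/R172H and Pdx1-Cre, in which the Pdx1 promoter drives Cre in the pancreatic lineage. The labels give the strain background as C57BL/6 mixed, and the groups come from the paper's metabolomics and not from the labels. KPC1 is a further line, placed in neither group. For each line, 4 libraries were made from tumor cells grown alone (mono-culture) and 4 from tumor cells that had spent 48 h with fibroblasts (coculture) and were then sorted by their GFP. This gave 64 libraries, and the labels do not say whether the cells grown alone were sorted too. Libraries held 11178721 to 21333683 counts, and a member had between 88 and 16908 counts in a library.

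Serine is made from the glycolytic intermediate 3-phosphoglycerate by a dehydrogenase (Phgdh), a transaminase that takes its nitrogen from glutamate (Psat1) and a phosphatase (Psph). Serine hydroxymethyltransferases then move a carbon from serine to tetrahydrofolate, Shmt1 in the cytosol and Shmt2 in mitochondria, and leave glycine. In mitochondria, Mthfd2 oxidizes the folate-bound carbon, Mthfd1l releases it as formate and Aldh1l2 oxidizes it to carbon dioxide, whereas in the cytosol Mthfd1 returns formate to the folate pool used for purines and thymidylate. Several of these genes are known targets of ATF4, the transcription factor of the integrated stress response (ISR).

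In GENCODE M21 (GRCm38, the assembly of the mm10 build named in the processing notes), Phgdh lies at chr3:98313170-98339990, Psat1 at chr19:15904678-15947337 and Psph at chr5:129765558-129787449, all on the minus strand. Shmt1 (chr11:60788104-60811718), Shmt2 (chr10:127517123-127522444), Mthfd2 (chr6:83305691-83325908) and Aldh1l2 (chr10:83487450-83534140) are also on the minus strand. Mthfd1 (chr12:76255298-76319803) and Mthfd1l (chr10:3973118-4167081) are on the plus strand. Thus, 3 of the 9 genes lie on chromosome 10, but far apart. Counts of Phgdh carry a further uncertainty, because the row listed as Gm7901 (ENSMUSG00000082280, a processed pseudogene that GENCODE M21 names Gm5847) shares 193 sequences of 50 bases with Phgdh transcripts and held 6.76% as many counts. Psph, Shmt1 and Aldh1l2 overlap expressed genes on the opposite strand (Cct6a, Smcr8 and D10Wsu102e), and the strand setting used for counting is not given in the sources used here.

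Because these genes moved together in most comparisons below, the promoters of 4 of them are shown. They are the first enzyme of serine synthesis (Phgdh) and members with a high rise in coculture whose upstream sequence lies almost wholly outside annotated exons (Psat1, Shmt2 and Mthfd2). Each sequence is the 150 bases before the RefSeq transcription start, 5′ to 3′ on the strand of the gene (GRCm38.p6), with CCAAT, or ATTGG where the box is on the opposite strand, in capitals.
Phgdh, chr3:98339970-98340119, minus strand: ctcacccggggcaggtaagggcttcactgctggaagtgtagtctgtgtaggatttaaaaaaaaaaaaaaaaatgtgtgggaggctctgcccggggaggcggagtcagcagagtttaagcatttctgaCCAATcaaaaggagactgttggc
Psat1, chr19:15925060-15925209, minus strand: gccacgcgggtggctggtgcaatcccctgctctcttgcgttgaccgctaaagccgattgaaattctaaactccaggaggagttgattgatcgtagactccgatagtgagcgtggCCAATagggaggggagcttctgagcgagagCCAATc
Shmt2, chr10:127522445-127522594, minus strand: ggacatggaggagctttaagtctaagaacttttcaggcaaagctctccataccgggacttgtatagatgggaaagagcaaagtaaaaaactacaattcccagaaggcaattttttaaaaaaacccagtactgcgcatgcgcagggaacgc
Mthfd2, chr6:83317605-83317754, minus strand: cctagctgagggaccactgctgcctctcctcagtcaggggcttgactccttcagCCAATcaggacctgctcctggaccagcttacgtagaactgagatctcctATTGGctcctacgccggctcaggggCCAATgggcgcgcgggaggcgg

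RefSeq promoter windows of 300 bases (250 before and 50 after the start) were found for 8 of the 9 members, with 2 windows for Psat1, and Aldh1l2 had no entry. CCAAT, read on both strands, occurred in windows of 6 of these 8 genes (Phgdh, Psat1, Psph, Shmt1, Mthfd1 and Mthfd2), against 41.1% of 27025 genes. The Mthfd2 window held 3 such boxes within 100 bases of the start and the Shmt2 window none. TGATGNAA, the letters of the composite element read by ATF4 and C/EBP proteins, and CACGTG, the E-box, did not occur in any of the 9 windows, against 3.97% and 7.15% of 32851 windows of the same length. No match of one motif overlapped a match of another, since CCAAT alone was found, and a match or its absence describes only these letters in these windows.

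Grown alone, the lines differed widely in these enzymes. Per kilobase of gene, the median over lines of the authors' RPKM (reads per kilobase of gene, scaled to library size) was highest for Shmt2 (89.6) and Phgdh (83.7), followed by Psat1 (45.6), Mthfd1 (25.1), Mthfd1l (18.7) and Mthfd2 (13.6), and lowest for Aldh1l2 (9.65), Psph (9.01) and Shmt1 (7.62). Between lines, levels are given as CPM, counts scaled to a common normalized library size. Mthfd1 was the most even member, 1.52-fold between its highest and its lowest line, and Aldh1l2 the most uneven, 29.3-fold. KPC1 was highest for 7 members and N for the other 2 (Mthfd1l and Aldh1l2), whereas M was lowest for 6, K for Psat1 and Shmt1, and V for Aldh1l2.

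Of the serine synthesis enzymes, Phgdh had a level in mono-culture of 636 ± 95.7 CPM (mean ± SD of 4 libraries, as for all levels of a line) in KPC1 and 252 ± 18.9 in M, with E (566 ± 51.1), N (544 ± 45.1), T (464 ± 71.8), V (383 ± 49.9), K (356 ± 14.8) and H (332 ± 53.2) between them. Only 2 of the 7 steps between neighbors in this order passed the test, from T to V and from H to M (edgeR's quasi-likelihood test, adjusted p under 0.1, the threshold used throughout). Psat1 spread further. Its level was 504 ± 38.8 CPM in KPC1, 489 ± 92.6 in N, 268 ± 75.2 in T, 262 ± 65.1 in E, 162 ± 23.6 in H, 111 ± 30.2 in M, 81.5 ± 29.9 in V and 65.2 ± 13.6 in K, and neither KPC1 and N, nor T and E, nor V and K differed beyond their spread. Psph, the last step, followed a like order, from 122 ± 23.4 CPM in KPC1 and 91.1 ± 23.6 in N down to 18.8 ± 4.42 in K and 15.5 ± 3.96 in M, with T (59.6 ± 18.8), E (47.7 ± 11.7), V (39.1 ± 9.58) and H (37.97 ± 6.403) in between.

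Of the mitochondrial enzymes, Shmt2 spanned 5.34-fold between lines. KPC1 (465 ± 115 CPM) and N (461 ± 128) were high, H (239 ± 35.3), T (233 ± 76.4) and E (214 ± 50.2) lay in the middle, and V (132 ± 32.7), K (114 ± 26.9) and M (87.2 ± 18.5) were low, and of the steps between neighbors those from N to H and from E to V passed the test. V and M, which are not neighbors, also differed (log2 0.60, adjusted p = 0.0127). Mthfd2 ranged from 148 ± 50.5 CPM in KPC1 and 117 ± 34.9 in N to 22.9 ± 9.73 in K and 14.2 ± 6.70 in M, and its SD was over 0.4 of the mean in V, K, M and T. Mthfd1l was highest in N (176 ± 50.3 CPM) and KPC1 (165 ± 37.2) and lowest in K (44.9 ± 12.1) and M (34.9 ± 6.80).

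Aldh1l2 departed from this order. Its 4 libraries read 337, 171, 426 and 330 CPM in N, but 12.1, 9.28, 16.03 and 5.68 in V, the lowest of all lines. M, lowest for most members, held 68.0, 51.5, 43.5 and 64.2 CPM, above K, in which the libraries read 19.9, 28.8, 16.6 and 36.7. In Aldh1l2, 5 of 7 neighbors in the order differed, the most of any member.

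Of the cytosolic enzymes, Shmt1 ordered the lines differently, whereas the order for Mthfd1 was mostly unresolved. Shmt1 was highest in KPC1 (63.9 ± 5.48 CPM), then in H (49.1 ± 8.24) and V (45.3 ± 1.496), and lowest in K (17.97 ± 2.19). Mthfd1 stayed between 66.3 ± 7.74 CPM in M and 101 ± 15.8 in KPC1, and 1 of its 7 neighbor steps passed. All 9 members differed among the lines by the F test (adjusted p from 1.6e-23 for Aldh1l2 to 4.02e-06 for Mthfd1), as did 95.1% of the 14134 genes tested. Of the 252 differences of 2 lines in a member, 200 passed, against 57.6% over all genes, and of the 63 neighbor steps 25 passed, against 18.2%. The labels do not say that the 4 libraries of a line came from separate cultures, so these p-values measure only the spread between libraries.

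**Figure D1:**
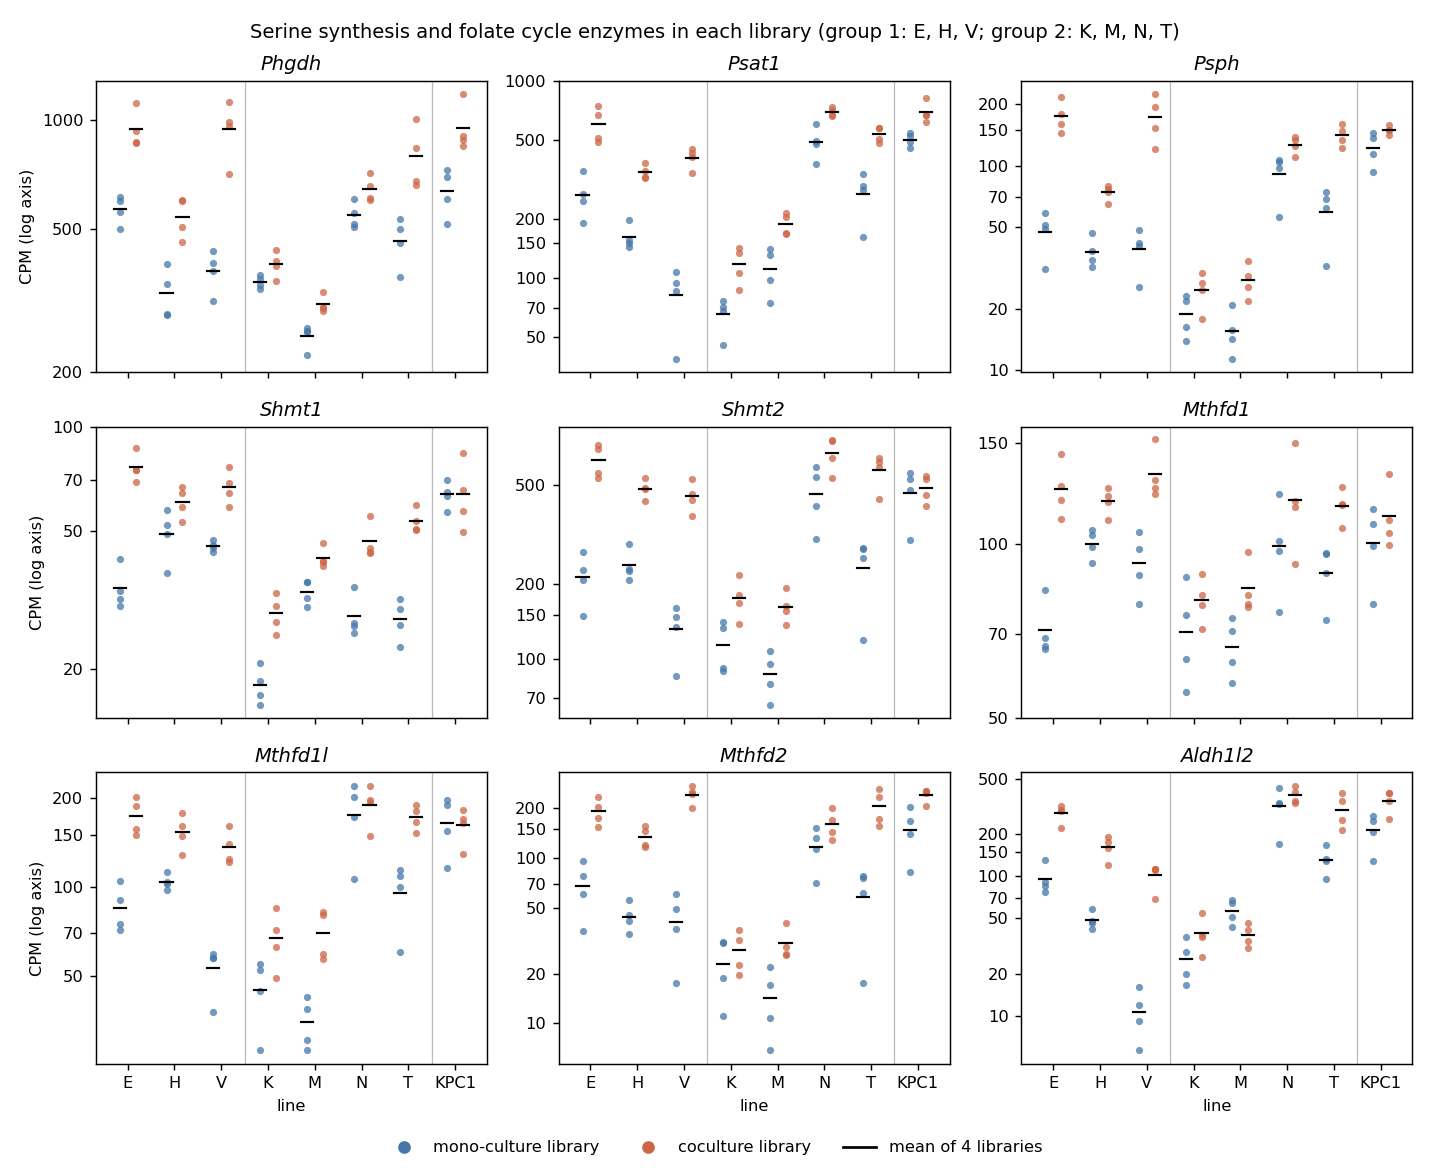
CPM (log axis) of each enzyme in each of the 64 libraries, by line and culture; points are libraries and bars the mean of 4. In mono-culture, Aldh1l2 spans 29.3-fold between N and V and Mthfd1 1.52-fold between KPC1 and M, and coculture points lie higher for most enzymes, but not in every line.

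The order of the lines was shared among most members. Over the 8 line means in mono-culture, the median of the 36 Pearson correlations between members was 0.767 (lowest 0.09, highest 0.995), a description of 8 points that share libraries. Mthfd2 had the highest median r with the other 8 members (0.903) and Shmt1 the lowest (0.394).

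The comparison of groups asked whether the metabolic classes differ in the RNA of these enzymes before any contact with fibroblasts. Protein was not measured in these libraries. The paper's immunoblots, which measured protein, showed more SHMT2 and PSPH in group 1 than in group 2 clones. In RNA, none of the 9 differed by the test. Over 3 group 1 and 4 group 2 clones, with the 4 libraries of a clone summed, no member passed, nor did any of the 14829 genes (0%). In edgeR's quasi-likelihood test 766 genes, 5.17%, had an unadjusted p under 0.05, and DESeq2 called 117 genes but no member. Shmt1 was the only member at an unadjusted p under 0.05 and the only one whose groups did not overlap, as for 5.38% of all genes. The group 1 sums were between 35.1 and 49.4 CPM and the group 2 sums between 17.97 and 33.1, a log2 difference of 0.69 ± 0.24 (SE; adjusted p = 0.888).

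For the others the clones of a group differed more among themselves than the groups did. The Psat1 sums averaged 171 ± 94.8 CPM over the 3 group 1 clones and 233 ± 192 CPM over the 4 group 2 clones (mean ± SD), a log2 difference of −0.45 ± 0.72. Those of Aldh1l2 averaged 52.8 ± 44.8 and 132 ± 129 CPM, with group 1 sums from 10.7 to 99.9 and group 2 sums from 25.4 to 314, a log2 difference of −1.32 ± 0.99. Within group 2, N and T lay above K and M for Phgdh, Psat1, Psph, Shmt2, Mthfd1, Mthfd1l, Mthfd2 and Aldh1l2. Log2 differences of the remaining 6 were between −0.19 and 0.13, and those of Psat1, Psph, Shmt2, Mthfd1l and Mthfd2 changed sign without clone N. Within sample sheet A (library numbers 1 to 43 in the labels, 43 libraries) none passed, and Shmt1 differed by 0.61. That comparison lacked clone K, the lowest for Shmt1, whose mono-culture libraries were all in sheet B. Sheet B (21 libraries) held 1 group 1 clone in mono-culture, so it gave no comparison.

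**Figure D2:**
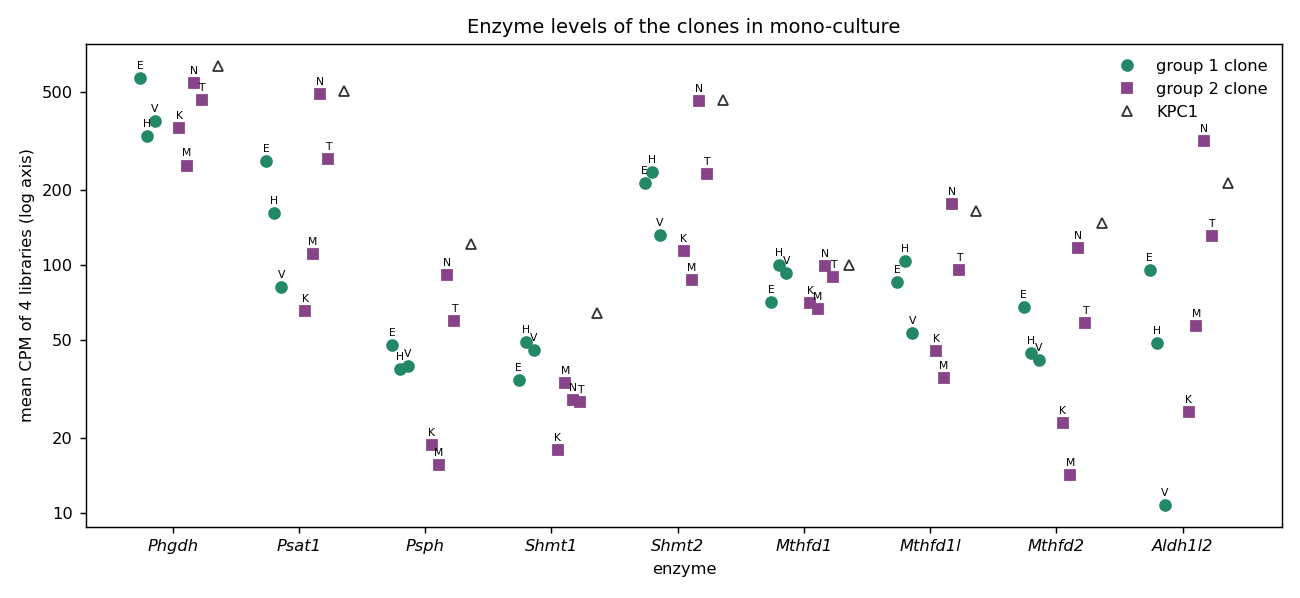
Mean CPM (log axis) of each enzyme in mono-culture for group 1 clones (circles), group 2 clones (squares) and KPC1 (triangles); each point is the mean of 4 libraries. Group 1 lies within the range of group 2, or overlaps it, except for Shmt1, where the group 1 sums run from 35.1 to 49.4 CPM and the group 2 sums from 17.97 to 33.1.

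The coculture libraries gave the enzymes of tumor cells after 48 h with fibroblasts, against those of cells grown alone. Only the coculture cells are known to have been sorted, so contact with fibroblasts and sorting cannot be told apart, here or in later comparisons of the cultures. All 9 rose over the 8 lines, and none fell, whereas of 14478 genes 54.6% were called, 27.2% higher and 27.4% lower. The median log2 fold change of the members was 0.98, against −0.001 over all genes tested. By role, serine synthesis rose by 0.60 ± 0.12 for Phgdh, 1.01 ± 0.18 for Psat1 and 1.03 ± 0.21 for Psph (log2 fold change ± SE, line as a covariate, 16 sums). Mitochondrial enzymes rose by 0.98 ± 0.17 for Shmt2, 1.25 ± 0.24 for Mthfd2, 0.69 ± 0.14 for Mthfd1l and 1.07 ± 0.35 for Aldh1l2, and cytosolic enzymes by 0.59 ± 0.11 for Shmt1 and 0.36 ± 0.07 for Mthfd1. Adjusted p-values were between 0.00255 and 0.00459 except for Aldh1l2 (0.0303).

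These calls held for 9 of 9 members within sheet A (7 lines) and for 8 of 9 within sheet B (5 lines), where Aldh1l2 had a log2 fold change of 0.57 (adjusted p = 0.248). Fibroblast RNA moved with the culture. The sum of Dcn, Fap, Postn and Thy1, which mark fibroblasts, was at most 0.0743 CPM on average in a line grown alone, and between 56.7 (V) and 97.4 CPM (N) in coculture. Of the whole list of 20 fibroblast markers, 19 were tested, 15 rose and none fell, and its sum was 6214 to 18540 CPM in mono-culture and 7474 to 17500 in coculture, lower in coculture in H and K. Among the 4 coculture libraries of a line, the deviation of the median member from its line mean had an r of −0.033 with that of the 4-marker sum (32 libraries), with −0.547 for Phgdh and 0.458 for Aldh1l2 at the extremes. What part of the rise came from RNA of fibroblasts was not tested, and in such bulk samples a change in the cells present and a change in RNA per cell cannot be told apart. The epithelial markers Krt8, Krt18, Krt19 and Sox9 were expressed in every line. Cdh1, which encodes E-cadherin, ran from 0.998 CPM in M to 304 CPM in V in mono-culture and from 0.784 to 274 CPM in coculture, and Epcam was near 0 (at most 0.37 CPM). Of these 6 markers, 5 were tested, 1 rose and 2 fell in coculture. Of the 4 immune and endothelial markers, Ptprc and Cdh5 were below 0.12 CPM, and of the 2 that were tested 1 rose and 1 fell. Cd68, a macrophage marker, rose from line means of 3.91 to 18.5 CPM to 11.8 to 40.5 CPM, higher in 8 of 8 lines (log2 1.37, adjusted p = 0.0108). Pecam1, at most 2.11 CPM in a line, fell by 1.08 on the log2 scale (adjusted p = 0.0389). The sum of the 4 was 5.18 to 19.4 CPM in mono-culture and 12.01 to 41.3 CPM in coculture. Whether any immune or endothelial cells were present, and had a part in the rise of the members, was not tested.

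Within single lines, 56 of the 72 pairs of a member and a line rose and 1 fell, against 23.7% and 21.9% over all genes, and in 51 pairs all 4 coculture libraries lay above all 4 mono-culture libraries (18.3% over all genes). Psat1 rose in 8 of 8 lines, Shmt1 and Shmt2 in 7, Phgdh, Psph, Mthfd1l, Mthfd2 and Aldh1l2 in 6 and Mthfd1 in 4. Of all genes, 5.54% rose in 7 or more lines and 10.8% in 6 or more. All 9 members rose in E (32.1% of all genes), V (30%) and T (31.5%), in each case with all 4 coculture libraries above all 4 mono-culture libraries (24%, 23.6% and 24.4% of all genes). In H 8 rose (21.4%) and 8 of 9 did not overlap (18.4%), and in M 8 rose (21.6%), all without overlap (20.4%), and 1 fell (17.3%). In K 5 rose (12.5%), 2 of the 9 members without overlap (11.1%). In N 4 rose (20%) and 3 of 9 did not overlap (12.6%), and in KPC1 4 rose (20.1%) and 3 did not overlap (12%). Mean levels were higher in coculture in all 8 lines for 7 members, against 14.6% of all genes. The median response of the members was highest in V (1.77 on the log2 scale) and E (1.21). T (1.00), H (0.97), M (0.76) and K (0.58) followed, and it was lowest in N (0.46) and KPC1 (0.30). Of the 57 calls, 42 held whichever replicate number was left out, and the 15 that did not lay in H, K, M, N and KPC1.

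Psat1, the transaminase, was the only member called higher in every line. In V its libraries read 94.2, 86.0, 107 and 38.6 CPM in mono-culture and 449, 433, 410 and 340 in coculture. That is 5.003-fold (log2 2.32 ± 0.21, adjusted p = 1.04e-12), and the groups do not overlap. In K, lowest in mono-culture, they read 76.6, 45.6, 71.0 and 67.6 CPM and then 134, 86.5, 106 and 142, a 1.80-fold rise (adjusted p = 0.00213). In KPC1, highest in mono-culture, the values were 527, 543, 487.5 and 457 CPM and then 616, 817, 669 and 674, 1.38-fold (adjusted p = 0.0721), again with no overlap, but without replicate 2 or 3 this call was lost. Psph rose 4.42-fold in V (39.1 ± 9.58 to 173 ± 45.2 CPM), 3.67-fold in E (47.7 ± 11.7 to 175 ± 31.7) and 2.36-fold in T. Its values in K (18.8 ± 4.42 and 24.8 ± 5.05 CPM) and KPC1 (122 ± 23.4 and 150 ± 6.95) did not differ by the test. Phgdh rose most in V as well, from 383 ± 49.9 to 947 ± 175 CPM, and did not pass in K (356 ± 14.8 and 399 ± 33.3) or N (544 ± 45.1 and 646 ± 52.5).

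Mthfd2, which oxidizes the mitochondrial folate-bound carbon, had the highest average rise of the members. In V, libraries read 49.1, 37.5, 60.9 and 17.6 CPM alone and 243, 275, 253 and 201 in coculture, 5.88-fold (adjusted p = 1.01e-08). In T, they read 78.1, 61.1, 75.9 and 17.6 CPM and then 174, 262, 233 and 157, 3.55-fold. In both lines 1 mono-culture library, replicate 4, lay far below the other 3, and every coculture library lay above all 4. In K the values overlapped, at 30.7, 11.1, 31.1 and 18.9 CPM and 36.7, 19.6, 22.7 and 31.9, 1.21-fold (adjusted p = 0.658). Shmt2 rose 3.40-fold in V (132 ± 32.7 to 450 ± 63.5 CPM), 2.94-fold in E (214 ± 50.2 to 629 ± 97.3) and 2.46-fold in T, and stood at 465 ± 115 and 486 ± 60.7 CPM in KPC1. Mthfd1l, which releases formate, rose 2.58-fold in V, 2.05-fold in E and 2.00-fold in M, and in N and KPC1 its levels overlapped (176 ± 50.3 and 191 ± 30.1 CPM in N, 165 ± 37.2 and 162 ± 22.8 in KPC1).

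Aldh1l2, the mitochondrial dehydrogenase that ends the route in carbon dioxide, had both the largest rise and the only fall. In V, from 12.1, 9.28, 16.03 and 5.68 CPM, it reached 69.2, 112, 114 and 111 CPM, 9.44-fold (log2 3.24 ± 0.28, adjusted p = 1.86e-13). In M it went from 68.0, 51.5, 43.5 and 64.2 CPM to 30.8, 34.7, 41.4 and 45.98, 0.673-fold (log2 −0.57 ± 0.25, adjusted p = 0.0769), while the other 8 members rose in the same libraries. The groups in M overlap by 1 library each, and the call was lost without replicate 1, 2 or 4. In E it rose 2.95-fold, in H 3.34-fold and in T 2.29-fold.

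Shmt1, the cytosolic hydroxymethyltransferase, rose most in E, from 41.6, 33.7, 30.4 and 31.8 CPM to 86.8, 69.4, 75.01 and 75.2, 2.23-fold (adjusted p = 8.84e-11). In KPC1 it stood at 56.9, 70.2, 65.1 and 63.2 CPM alone and at 49.7, 57.1, 84.2 and 65.7 in coculture, and the libraries overlapped. Mthfd1 rose 1.76-fold in E, from 71.1 ± 8.25 to 125 ± 13.9 CPM, and 1.43-fold in V. In H its 4 coculture libraries (110, 126, 119 and 121 CPM) lay above the mono-culture libraries (92.9, 104, 106 and 99.2) without passing the test (adjusted p = 0.135).

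In coculture, V, low for most members when grown alone, stood among the highest lines for some. Mthfd2 was highest in V (243 CPM) and KPC1 (241) and lowest in M (30.5) and K (27.7), and Phgdh lay at 952 CPM in KPC1, 947 in V and 943 in E, against 309 in M. Aldh1l2 remained highest in N (382 CPM). It was lowest in M (38.2 ± 6.76 CPM) and K (39.2 ± 11.8), and whether M and K differed in coculture was not tested. Per kilobase of gene, the median over lines of the RPKM in coculture was 191 for Shmt2, 145 for Phgdh and 103 for Psat1, 49.1 for Mthfd2, 32.5 for Mthfd1, 32.1 for Mthfd1l, 28.6 for Aldh1l2, 28.1 for Psph and 13.3 for Shmt1.

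**Figure D3:**
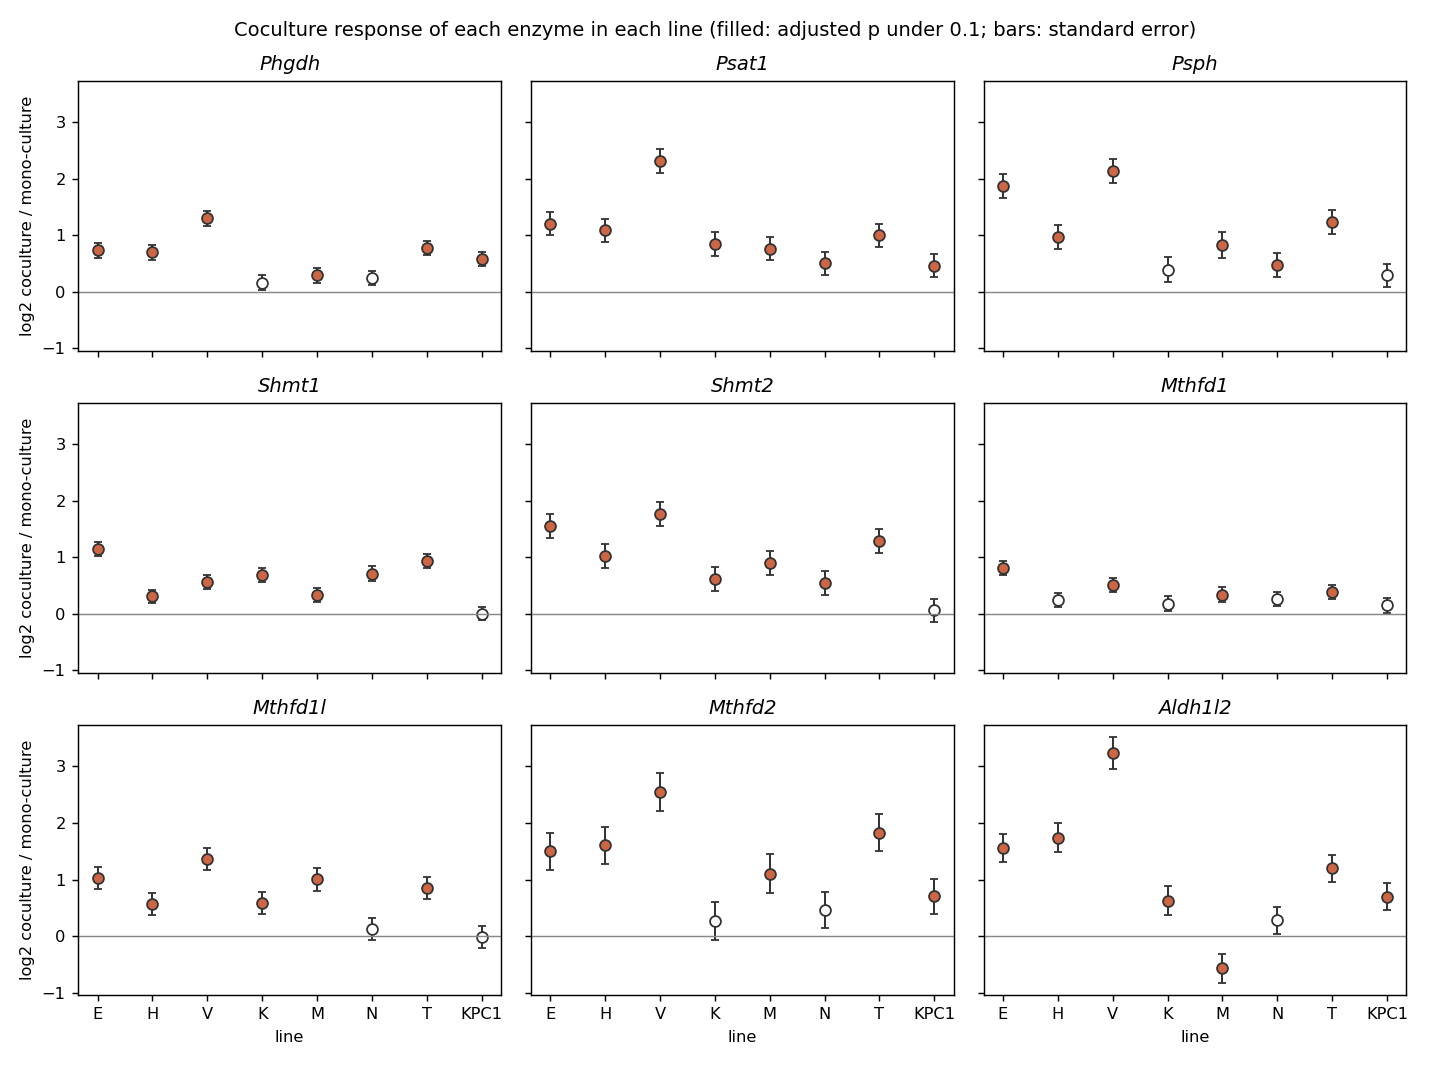
Log2 ratio of coculture to mono-culture for each enzyme in each line, with its standard error; filled points passed an adjusted p under 0.1. Psat1 is filled in 8 of 8 lines, the highest point is Aldh1l2 in V (3.24) and the only filled point below 0 is Aldh1l2 in M (−0.57).

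Responses differed among the lines for 9 of 9 members (F test over 7 differences, adjusted p from 1.37e-10 for Aldh1l2 to 0.0277 for Mthfd1), against 71.3% of all genes. Mthfd1 was the most even here too. The difference between the groups in response, tested with the clone as the replicate, was not called for any member, and 1 of 15700 genes was called (0.00637%). The estimates, group 1 minus group 2 (log2), were 1.76 ± 0.52 for Aldh1l2 (adjusted p = 0.616), 0.94 ± 0.41 for Mthfd2, 0.91 ± 0.31 for Psph, 0.74 ± 0.29 for Psat1, 0.59 ± 0.23 for Shmt2 and 0.54 ± 0.21 for Phgdh. Those of the other members were smaller, 0.325 ± 0.249 for Mthfd1l, 0.213 ± 0.148 for Mthfd1 and −0.004 ± 0.225 for Shmt1. Of the 9 members, 5 had an unadjusted p under 0.05 (Aldh1l2, Psph, Psat1, Shmt2 and Phgdh), against 7.62% of all genes and 2.66% in this direction, and DESeq2 called Aldh1l2 (adjusted p = 0.0558). The responses of the members were correlated over the 8 lines (median r 0.75), so these 5 are not separate results. In coculture itself no member was called between the groups, and neither was any other gene but 1 of the 14737 tested. Group 1 sums of Shmt1 were between 62.3 and 76.3 CPM and group 2 sums between 29.3 and 53.6, a log2 difference of 0.68 ± 0.22 (adjusted p = 0.581). Mthfd1 sums did not overlap either (121.5 to 135 CPM and 80.7 to 121.0), as for 9.09% of all genes.

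Libraries of one line and culture deviated from their mean in several enzymes at once. In 10 of the 64 libraries all 9 members lay above the mean of their line and culture, and in 7 all 9 lay below it. Over the 64 deviations the median r of 2 members was 0.557 (lowest 0.13, highest 0.931). The mono-culture library numbered 4 had a median deviation below 0 in 7 of 8 lines, the lowest in T (−0.63 on the log2 scale), and in N the library numbered 2 lay lowest (−0.55). Leaving out number 4 left the coculture rise called for 9 of 9 members.

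**Figure D4:**
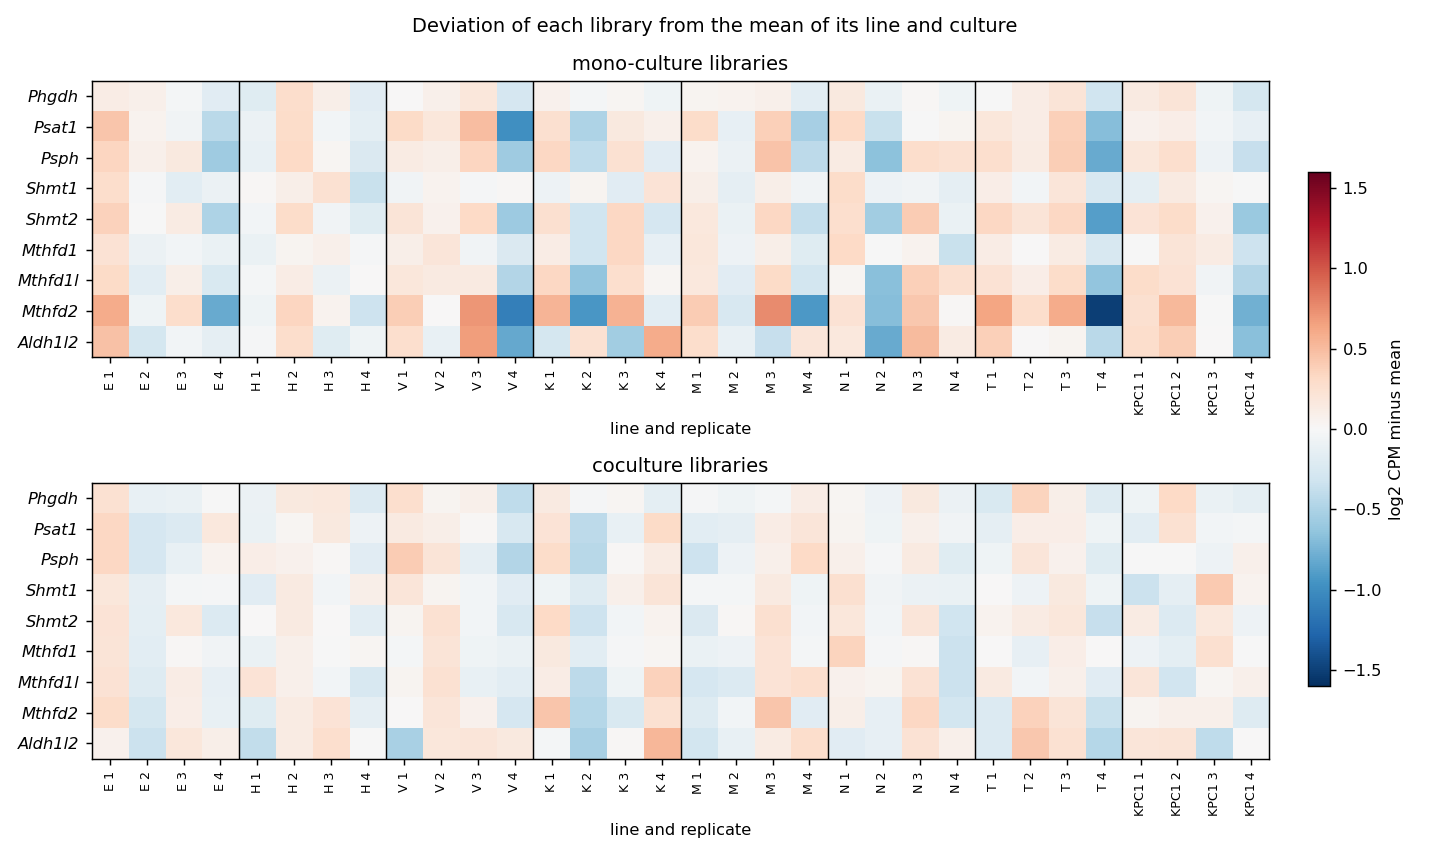
Log2 CPM of each enzyme in each library minus the mean of its line and culture (color), for mono-culture above and coculture below. Whole columns share a color: in mono-culture, T 4 (median −0.63) and N 2 (median −0.55) are low in most enzymes.

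Genes of the ISR varied along with these libraries. Of 16 genes listed as Atf4 and its targets outside the pathway, 11 had an r over 0.5 with the median deviation of the members over the 64 libraries, against 5.04% of 14134 genes, with 0.936 for Asns (asparagine synthetase), 0.847 for Eif4ebp1, 0.844 for Trib3 and 0.827 for Atf4 itself. The rest were below 0.5: Ddit3 (0.408), Atf3 (0.248), Cebpb (0.157), Ddit4 (−0.137) and Vldlr (−0.253). These correlations describe points that share their libraries and depth. All values here are of RNA, whereas the paper's immunoblots measured protein and showed more ATF4 and ASNS in group 1 clones. In coculture 12 of the 16 rose and none fell: Asns by 1.303 ± 0.18 (log2, adjusted p = 0.00126) and Atf4 by 0.60 ± 0.16 (0.0122). Neither was called between the groups in mono-culture (log2 0.002 for Asns and −0.11 for Atf4, adjusted p = 1 and 0.98) or in the difference in response (0.60 and 0.67, adjusted p = 0.695 and 0.656).

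The genes around the pathway moved less uniformly. Of 72 genes in 8 related lists, the ATF4 list included, 64 were tested in coculture, of which 33 rose and 10 fell (median log2 0.28), and none was called between the groups, in level or response. Purine synthesis, which uses the formyl carbon, had 5 of 8 genes higher and 1 lower, serine transport 5 of 8 higher and 1 lower, and folate uptake, activation and reduction 5 of 13 higher and 5 lower. The methionine cycle had 4 of 8 higher and 1 lower, glycine cleavage 1 of 4 in each direction, transsulfuration 1 of 2 higher, and serine use and breakdown 0 of 5 higher and 1 lower. Among the smallest p-values, Nnmt and Asns rose and Sfxn3, Aldh1l1 and Folr2 fell. Aldh1l1, the cytosolic counterpart of Aldh1l2, fell by 0.44 on the log2 scale, with line means from 115 to 293 CPM and then 92.8 to 229, and Sfxn3, a mitochondrial serine carrier, fell by 0.40. Nnmt, a nicotinamide methyltransferase, was at most 0.221 CPM on average in a line grown alone and 0.733 to 2.27 CPM in coculture, and Folr2 was below 0.4 CPM in every line in both cultures.

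By the pattern of log2 CPM over the 16 sums of a line and culture, the genes most like the mean of the members were Phf10 (r = 0.992), Uqcrq (0.977), 2700099C18Rik (0.977), Recql4 (0.976) and Cars (0.975). For single members they were Gm7901 for Phgdh (0.999, the row that shares sequence with it), 2700099C18Rik for Psat1 (0.974), Gars for Psph (0.982) and Mthfd2 (0.989), Cenpp for Shmt1 (0.96), Xpot for Shmt2 (0.98), Mybbp1a for Mthfd1 (0.964), C330027C09Rik for Mthfd1l (0.962) and Ereg for Aldh1l2 (0.953). Each r is over 16 points that share lines and libraries.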

How the data were processed

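RNA of 64 libraries was measured by paired-end, strand-specific sequencing of polyadenylated RNA. The authors deposited raw whole-number counts of reads per gene and, in a separate table, RPKM computed from reads. Per the labels, featureCounts, edgeR and mm10 were used, whereas the aligner and versions are not given in the sources used here. Samples were grouped by the line and culture in their labels, and clones by the paper's groups. Tests used edgeR 4.0.16 (quasi-likelihood, TMM, filterByExpr, Benjamini-Hochberg over all genes tested, threshold 0.1) in R 4.3.3, with counts of the 4 libraries summed per line and culture for comparisons of groups and cultures, and 1 fit of 64 libraries within and among lines. DESeq2 1.42.0 and limma 3.58.1 on log2(RPKM + 1) were alternatives, and the fits were tested on simulated data. Log2 CPM used a prior count of 0.5. Libraries of one line and culture differed beyond sampling noise (chi-square per gene 4.46 to 65.6 over 96 pairs). Sample sheets were inferred from library numbers. The members, the related lists and the rule for named genes (up to 3 in each direction by p-value, plus Atf4 and Asns, and the genes of most similar pattern) were chosen with earlier results of these data known. Some items that these rules select are not reported here.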

Additional observations from a re-analysis of the deposited data

Results flagged for a closer look

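Of 144 groups of 4 libraries (a member in a line and culture), 7 held 1 library whose gap to the nearest of the others, as a share of the group's range, was past Dixon's limit for 4 values, and chance gives about 1 in 20. For Phgdh, mono-culture replicate 4 of M (share 0.842) read 224 CPM, with the nearest at 259, and coculture replicate 2 of KPC1 (0.833) read 1181 CPM, with the nearest at 902.5. For Shmt1, coculture replicate 1 of N (0.875) read 55.3 CPM against 44.8, and for Shmt2, mono-culture replicate 4 of T (0.855) read 119.5 CPM against 255. For Mthfd1l, mono-culture replicate 4 of V (0.913) read 37.6 CPM against 57.5, and for Mthfd2, coculture replicate 4 of KPC1 (0.834) read 208 CPM against 247. For Aldh1l2, coculture replicate 1 of V (0.945) read 69.2 CPM against 111, still above every mono-culture library of V.

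The response to coculture differed among the 8 lines for each member by edgeR's quasi-likelihood F test, with Benjamini-Hochberg adjusted p-values of 7.35e-06 for Phgdh, 6.78e-06 for Psat1, 3.92e-07 for Psph, 3.23e-06 for Shmt1, 2.72e-05 for Shmt2, 0.0277 for Mthfd1, 0.000183 for Mthfd1l, 0.000263 for Mthfd2 and 1.37e-10 for Aldh1l2.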

How the results depend on the processing

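The coculture rise of 9 members was kept under every alternative tried but 1: in sample sheet B alone, an alternative chosen after seeing the data, Aldh1l2 was not called. Taking libraries instead of clone sums as replicates and adding the replicate block changed 2 choices together. By edgeR's quasi-likelihood test this gave 2 members called between the groups in mono-culture (Shmt1, adjusted p = 0.000867, and Aldh1l2, 0.0773). Libraries of a clone are not independent samples of its group, so p-values of this alternative do not measure the spread between clones. In the difference in response, the same 2 changes gave 8 members called, all but Shmt1, whose log2 difference was 0.038. There DESeq2 gave 1 (Aldh1l2). Over all genes, these comparisons called 0 and 1 genes in the main test. With libraries as replicates and the block together, they called 3619 of 12347 and 4246 of 13148 genes. They called 117 and 187 with DESeq2, and 217 and 48 without clone E. Sheet B alone called 2532 of 12867 genes in coculture. Libraries as replicates and the block together left 9 members called in coculture over the lines. Adding the replicate block alone left 9 called among lines and 9 in response among lines, with 60 pairs called within lines. The main tests did not take replicate numbers as pairing, although same-numbered libraries of a line were somewhat alike. Of 32 such pairs, 17 deviated together (correlation over 0.1), with a median of 0.11. The same number gave the best correlation in 24 of 32. Without 1 replicate number, calls within lines were 48 to 49 instead of 57, and members whose response differed among lines 8 to 9.

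None of the group differences that changed sign was called. In the coculture libraries, the log2 difference between the groups was 0.243 for Psat1, 0.813 for Psph, 0.391 for Shmt2, 0.309 for Mthfd1l and 0.83 for Mthfd2, and with limma on log2(RPKM + 1) it was 0.12 for Psph, 0.082 for Shmt2, 0.128 for Mthfd1l and 0.326 for Mthfd2. Leaving out 1 line or replicate, it ranged from -0.179 to 0.265 for Phgdh, -0.947 to 0.212 for Psat1, -0.419 to 0.426 for Psph, -0.445 to 0.44 for Shmt2, -0.358 to 0.485 for Mthfd1l and -0.335 to 0.713 for Mthfd2, and the difference in response of Shmt1 from -0.224 to 0.176. Likewise, the response ranged from -0.068 to 0.294 for Mthfd1l in N, and in KPC1 from -0.143 to 0.109 for Shmt1 (-0.001 with no filter on low counts), -0.072 to 0.232 for Shmt2 and -0.18 to 0.147 for Mthfd1l. The cause of these changes was not tested.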
